A study of Saccharomyces cerevisiae with 16 samples.

Results

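The open reading frames described here are the rows of the deposited yeast table whose systematic name ends in a letter suffix (such as YPL119C-A), whose row text gives no gene name and mentions no transposon, and whose mean mRNA level over the 8 mRNA libraries was at least 10 RPKM. There were 169 of them among 6679 rows, out of 527 unnamed suffixed rows at any level. RPKM is a read count scaled by counted length and by library size, so levels can be set side by side between genes. The members were chosen by that mRNA level and by their names, so the floor is no finding. Just inside it lay YER087C-A, YPR159C-A and YKL165C-A, with mean mRNA levels of 10.4, 10.5 and 10.7 RPKM. Just outside lay YBL039C-A, YOL155W-A and YIR030W-A, at 9.46, 8.75 and 8.59 RPKM. The members are referred to below as the unnamed ORFs, although RefSeq (assembly R64) now gives a gene symbol to 54 of them. Another 63 stand in RefSeq under their systematic name only, and 52 were not matched there. Most were short. The counted length, which in RefSeq-matched genes was usually the open reading frame less 60 bases, had a median of 171 bases and ran from 15 to 5208 bases. It was under 60 bases in 22 unnamed ORFs and over 1000 bases in 7, so the word short does not hold for all of them. Of these 7, YGR161C-C, YGR161C-D and YPR158W-B belong to Ty retrotransposons as background knowledge, although their rows do not say so, and reads from such multicopy elements cannot be assigned with certainty.

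Suffixed names were given to open reading frames added to the yeast genome after its first annotation, many of which had been passed over because they are so small. Some encode well studied small proteins of mitochondria, chromosomes and ribosomes, and others have no known product. In sporulation, a diploid cell starved of nitrogen runs meiosis and packs the products into spores, and waves of early and middle genes replace each other. A ribosome footprint is the stretch of mRNA covered by a ribosome, so a transcript with mRNA reads and few footprints carried few ribosomes when the cells were harvested.

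The cells were SK1, a budding yeast background that sporulates fast, harvested 6 h or 3 h after they were moved to sporulation medium, and all were given 100 µM cycloheximide for 1 min before harvest. The 8 groups were the DBP1 deletion and wild type (WT), each at 3 h and at 6 h, in footprints and in mRNA. The deletion strain lacked the reading frame of DBP1, an RNA helicase gene of the DEAD-box family, cut out with Cas9 and no marker. Each group held 2 libraries, numbered 2 and 4 in the deletion and 3 and 4 in WT, 16 in all. Whether the 2 came from separate cultures is not in the labels. A p-value here reflects only how far apart libraries of the same group lay, possibly for technical reasons. That spread was pooled over all groups fitted and moderated over genes. Recovered reads ran from 4578410 to 6965130 per footprint library and from 5644990 to 9144994 per mRNA library. The unnamed ORFs took 0.701% to 0.954% of the footprint reads and 0.818% to 0.861% of the mRNA reads.

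One mRNA library went against its label. Labelled deletion 3 h replicate 2, it correlated across genes with the 6 h mRNA libraries at Pearson's r of 0.977 to 0.991 on log2(RPKM + 1), and with the other 3 h mRNA libraries at 0.636 to 0.707. Of 79 unnamed ORFs that differed between the WT times in mRNA on both scalings with no overlap, it lay nearer to WT 6 h in 68, while the mRNA library labelled deletion 3 h replicate 4 did so in 5. The mRNA values below therefore leave it out unless it is named, and calls named below that are lost with it are given. DBP1 itself had footprint levels of 1.12 and 1.06 RPKM in the deletion at 3 h, against 417 and 429 RPKM in WT, and 0.578 and 0.449 RPKM in the deletion at 6 h, against 164 and 147 RPKM in WT. Its mRNA was 1.22 and 0.409 RPKM in the deletion at 6 h, against 32.3 and 40.7 RPKM in WT. Summed mRNA of 10 middle meiotic marker genes was 29158 to 32695 RPKM in the 6 h libraries and 529 to 1543 RPKM in the 3 h libraries, and that of 10 early genes was 2642 to 3422 RPKM at 6 h and 11864 to 12427 RPKM at 3 h. The 8 haploid-cell markers had summed mRNA of 1172 to 1298 RPKM at 6 h and 271 to 291 RPKM at 3 h, the 3 h ranges leaving out that library, and their part in the results below was not tested.

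Among the unnamed ORFs SPO24 led both measures. SPO24 encodes a small protein of sporulation. Its footprint level was 8096 and 7339.6 RPKM in the 6 h deletion libraries and 6575 and 5735 RPKM in the 6 h WT libraries. At 3 h it was 13403 and 13429 RPKM in the deletion and 13331 and 12697 RPKM in WT, so every 3 h library lay above every 6 h library. SPO24 alone held 11.8% to 16.2% of the footprint reads of all 169 ORFs at 6 h and 20.2% to 21.5% at 3 h. Its mRNA level was 7063 and 7630.1 RPKM in WT at 6 h and 6449 and 7188 RPKM in WT at 3 h, and these ranges overlap. From WT 3 h to WT 6 h the median gene changed by -0.96 in footprints and -1.38 in mRNA on the log2 scale. The levels here and in the next paragraph are not corrected for that shift.

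The next highest mean footprint levels belonged to YBR085C-A, DPA10, YGR161W-C, YDR524C-B, COX26, MRA1 and CMI8. YBR085C-A had footprint levels of 2665 and 2559 RPKM in WT at 6 h and 6262 and 5869 RPKM in WT at 3 h. YGR161W-C ran in the opposite direction, with 4434 and 4385 RPKM in WT at 6 h and 95.7 and 94.7 RPKM in WT at 3 h. In CMI8 the WT footprint levels were 2363 and 2299.8 RPKM at 6 h and 374 and 382 RPKM at 3 h. No library of one time overlapped the other time in any of these 3 ORFs. YDR524C-B held 542 and 491 RPKM of footprints in WT at 6 h, against 3388 and 2955 RPKM at 3 h, and MRA1 held 693 and 722 RPKM at 6 h, against 2966 and 2498 RPKM at 3 h. COX26, a subunit of cytochrome c oxidase, had 6232 and 1714 RPKM of footprints in the deletion at 3 h and 2545 and 1816 RPKM in WT at 3 h. Its high value in deletion replicate 2 stood alone, and the other deletion library lay below both WT libraries. The highest mean mRNA levels over the 8 libraries were 7417 RPKM for SPO24, 4818 RPKM for DPA10, 2760.4 RPKM for YBR085C-A and 2549 RPKM for CMI8.

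**Figure D1:**
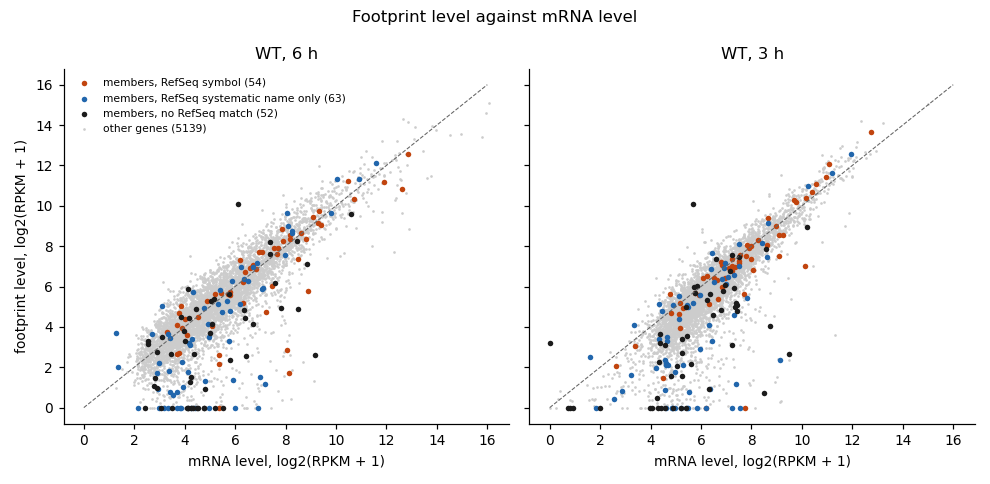
Footprint level against mRNA level in WT, both as log2(RPKM + 1) of the mean of 2 libraries, at 6 h (left) and 3 h (right). Coloured points are the 169 unnamed ORFs by their RefSeq status, grey points the 5139 other genes at the same mRNA floor, and the dashed line marks equal levels; a row of unnamed ORFs lies at 0 footprints over a range of mRNA levels in both panels.

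How many ribosomes a transcript carried was described by the ratio of mean footprint RPKM to mean mRNA RPKM in a group. The unnamed ORFs were spread more widely on this ratio than other genes, mostly toward low values. Their median ratio was 0.577 in WT at 6 h and 0.531 in WT at 3 h. For the 77 suffixed ORFs that carry a gene name in the table the medians were 1.1 and 1.01, and for the 5139 other genes at the same floor 0.986 and 0.716, in the same order of times. At 3 h the ratio was under 0.1 in 45 of 168 unnamed ORFs, in 1 of 77 named suffixed ORFs and in 196 of 5138 other genes, beside 4.5% of all genes at the floor. At 6 h it was under 0.1 in 44 of 169 unnamed ORFs, where 3.58% of all genes at the floor were. The gap in medians to other genes was smaller among well covered genes. With at least 20 reads in each WT mRNA library at 3 h, the median was 0.673 in 130 unnamed ORFs and 0.719 in 5107 other genes. The ratio was under 0.1 in 24 of the 130 and in 185 of the 5107. With the same coverage at 6 h the medians were 0.848 and 0.987. These are descriptions with no test. Ratios above 2 were found in 11 unnamed ORFs at 6 h and in 3 at 3 h, beside 10.8% and 2.28% of all genes at the floor.

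The RefSeq status of an ORF, which the choice of members did not use, went with its ratio. The 54 unnamed ORFs with a RefSeq symbol had median ratios of 0.996 at 6 h and 0.851 at 3 h in WT, close to those of other genes. The 63 with a systematic name only had a median of 0.476 at 6 h, against 0.247 at 3 h. For the 52 with no match it was 0.258 at 6 h, against 0.195 at 3 h. A ratio under 0.1 at 3 h was found in 3 of the 54, in 20 of the 63 and in 22 of 51 unmatched ORFs. Counted length went with the ratio as well, with 10 of 21 ORFs of under 60 counted bases below 0.1 at 3 h, against 29 of 120 of 60 to 300 bases and 6 of 27 over 300 bases, and the parts of length and RefSeq status were not told apart. Median mRNA level also differed, at 142 RPKM with a symbol, 46 RPKM with a systematic name only and 34.6 RPKM with no match.

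**Figure D2:**
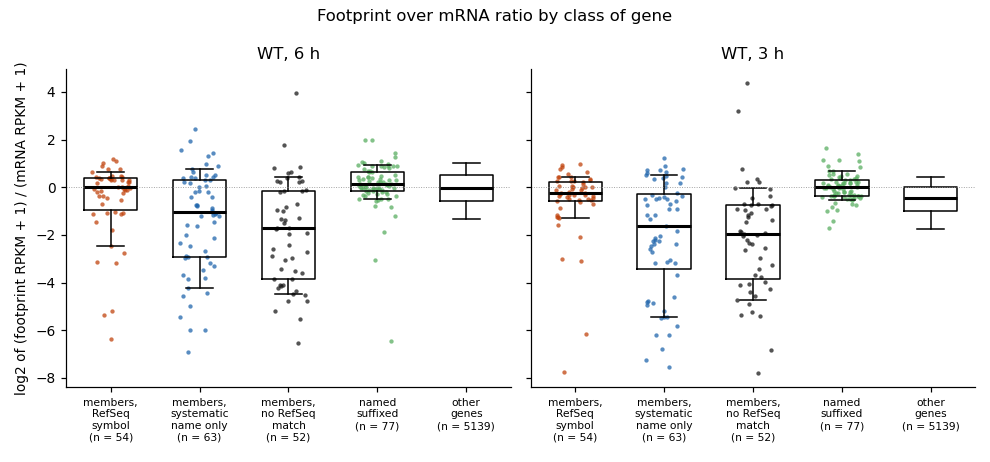
The log2 ratio of footprint RPKM + 1 to mRNA RPKM + 1 in WT at 6 h (left) and 3 h (right), by class of gene; points are ORFs, boxes span the quartiles with the median as a thick line, and whiskers reach the 10th and 90th percentiles. The 3 classes of unnamed ORFs stand left of the named suffixed ORFs and the other genes, and the classes without a RefSeq symbol reach lowest.

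At the top of the ratio stood YOL013W-A, an unmatched ORF with far more footprints than mRNA in every library. Its footprint level was 940.4 and 904 RPKM in the deletion at 6 h and 1010.1 and 1132 RPKM in WT at 6 h, and 1179 and 1145 RPKM in the deletion at 3 h and 1312 and 845 RPKM in WT at 3 h. Its mRNA level was 78.4 and 59.1 RPKM in WT at 6 h and 41.7 and 60.4 RPKM in WT at 3 h. That gave ratios of 15.6 at 6 h and 21.1 at 3 h, and no mRNA level in any library reached the lowest footprint level. Among ORFs with at least 20 reads in each WT mRNA library at 3 h, 130 of the 169, the following 5 at 3 h were DPA10 at 1.98, SPO24 at 1.91, HBN1 at 1.83, YMR173W-A at 1.73 and DPI8 at 1.7.

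At the bottom, 13 unnamed ORFs had no footprint read in any of the 8 footprint libraries. Of these, 1 has a RefSeq symbol, 4 a systematic name only and 8 no match. Their mean mRNA levels were 13.5 to 104 RPKM. A count of 0 allows up to 3 reads over the 8 libraries, which limits their ratio of mean levels to at most 0.00767 in the best covered and 0.166 in the least covered, for counting error only. The highest mRNA level among them was that of RPL41B, a gene for the smallest ribosomal protein, with mRNA at 49 and 31.7 RPKM in WT at 6 h and 173 and 256 RPKM in WT at 3 h. Only 18 bases of RPL41B were counted. Its near-identical copy YDL184C also had 0 footprint reads, and the values of such a pair are uncertain. YOR376W-A, with 96 counted bases, had mRNA at 49.9 and 74.8 RPKM in WT at 6 h and 34.9 and 49.8 RPKM in WT at 3 h and no footprint read.

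Other transcripts carried very few footprints over a well measured mRNA. YIL071W-A, with 417 counted bases, had 1 and 2 footprint reads beside 1237 and 873 mRNA reads in the WT libraries at 3 h, a ratio of 0.00179. YCR024C-B had 4 and 5 footprint reads beside 942 and 682 mRNA reads there, a ratio of 0.00721. MCO10, which encodes a protein associated with ATP synthase, had an mRNA level of 461 and 478 RPKM in WT at 6 h and 1049 and 1176 RPKM in WT at 3 h, with ratios of 0.113 and 0.117 at those times. Among the 130 well covered ORFs 9 had a ratio of 0 in WT at 3 h, and 3 of these, RPL41B, YMR316C-B and YOR376W-A, were at 0 in all 8 libraries. The other 6 were YBR196C-A, YFL041W-A, YGR174W-A, YPL119C-A, YLR222C-A and YOR034C-A.

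Of the 117 unnamed ORFs with a RefSeq locus tag, RefSeq places 11 across another gene, 6 on the opposite strand and 4 on the same strand. The 52 unmatched ORFs, YOL013W-A, YMR173W-A and YIL071W-A among them, could not be checked for overlap. The strand setting of the counting is not given in the sources used here. YIL105W-A lies wholly within SLM1 on the opposite strand, and the values of the pair went in opposite directions. YIL105W-A had footprint levels of 139.9 and 112 RPKM in WT at 6 h and 0 and 0 RPKM in WT at 3 h, while SLM1 had 19.6 and 18.2 RPKM at 6 h and 58 and 56.5 RPKM at 3 h. ADF1 lies wholly within FYV5 on the opposite strand, and the mean footprint levels over 8 libraries were 20.7 RPKM for ADF1 and 0 RPKM for FYV5, so the footprint reads of ADF1 were not counted for FYV5. YJL077W-A lies within ICS3, and its mean mRNA level of 119 RPKM stood above the 4.79 RPKM of ICS3.

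Between the times most unnamed ORFs changed, in both directions. RPKM is relative within a library, and the median log2 change of all genes from WT 3 h to WT 6 h was -0.96 in footprints and -1.38 in mRNA, so calls are given also after each library was rescaled by its median ratio. Only 119 of the 169 passed the footprint filter of a mean of 5 RPKM, with all 169 passing in mRNA. In footprints, 30 of the 119 were higher and 64 lower at 6 h in WT (limma on log2(RPKM + 1), adjusted p under 0.05), where 20.1% of all 5312 genes were higher and 63.3% lower. After rescaling, 48 were higher and 30 lower, against 36% and 32.3% of all genes. In mRNA, 40 of the 169 were higher and 94 lower, where 16.4% of all 5720 genes were higher and 72.9% lower. After rescaling, 73 were higher and 39 lower in mRNA, against 38.1% and 35.5%. The median unnamed ORF changed by -0.77 in footprints and -1.02 in mRNA on the log2 scale. These are bulk samples, in which fewer cells of a kind and less RNA per cell cannot be told apart. With the mRNA library labelled deletion 3 h replicate 2 included, 27 were higher and 59 lower in mRNA.

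Because the mRNA level chose the ORFs, one that was high at a single time could enter through that time. Of the 169, 131 reached 10 RPKM of mRNA in WT at both times, 13 at 6 h only and 25 at 3 h only. Among the 131, 60 were higher and 28 lower after rescaling, where 44.6% and 29.7% of the 4480 genes passing the same floor at both times were. Of the 119 tested in footprints, 107 reached 5 RPKM in WT at both times, 6 at 6 h only and 5 at 3 h only. Among the 107, 41 were higher and 28 lower after rescaling, where 37.5% and 30.5% of 4809 such genes were. An ORF that passed through 1 time had to differ, so below its values are given as a description with no p. In the deletion, footprints at 6 h against 3 h gave 29 higher and 66 lower of 119, where 19.3% and 65.1% of all genes were called. Rescaled, the deletion gave 43 higher and 32 lower, against 34.8% and 31.3%.

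The largest footprint rises were in ORFs nearly silent at 3 h. YFR012W-A, with 27 counted bases, had 116 and 98 footprint reads in the WT libraries at 6 h and 0 and 3 at 3 h, a log2 change of 7.52 ± 1.26 (SE) (limma adjusted p = 0.000623). YIL105W-A had 60 and 42 footprint reads at 6 h and none at 3 h in WT, at least 36.9-fold higher against a floor of 3 reads over the group. YER087C-A likewise had 60 and 45 reads at 6 h and none at 3 h, at least 38-fold higher, and both ORFs passed the footprint filter in WT only through 6 h. In these ORFs the times did not overlap in either strain. The same-strand neighbour of YFR012W-A, DCV1, had footprint levels of 417 and 449 RPKM in WT at 6 h and 7.45 and 7.36 RPKM at 3 h, and its part in the YFR012W-A values was not tested. YGR161W-C and MIN7 moved from a moderate level. YGR161W-C changed by 5.52 ± 0.16 (SE), 6.48 above the median gene (limma adjusted p = 4.71e-08). MIN7 had 2392 and 2417 RPKM of footprints in WT at 6 h and 126 and 144 RPKM at 3 h, a change of 4.15 ± 0.35 (SE) (limma adjusted p = 1.77e-05).

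The largest footprint falls were smaller than the rises. BIL1, whose product regulates formin-driven actin assembly, had 15.5 and 15.2 RPKM of footprints in WT at 6 h and 112 and 103 RPKM at 3 h, a log2 change of -2.74 ± 0.17 (SE) (limma adjusted p = 3.92e-06). NCW1, for a cell wall protein, had 159.8 and 225 RPKM at 6 h and 1249 and 1283 RPKM at 3 h, a change of -2.73 ± 0.27 (SE) (limma adjusted p = 4e-05). Relative to the median gene these 2 ORFs fell by 1.78 and 1.77 on the log2 scale. MIN9 changed by -2.96 and YDR524C-B by -2.61, with limma adjusted p of 2.51e-05 and 3.7e-06. YPL152W-A changed by -2.66. Its mRNA was under 10 RPKM in WT at 6 h and it entered through 3 h, so this is a description with no p. YOL038C-A, the ORF with the largest fitted fall at -3.59, had 0 and 1 footprint reads at 6 h and 7 and 5 at 3 h over 36 counted bases and passed the filter in WT only through 3 h. In the deletion, YOR011W-A and YPL038W-A were also among the 6 largest rises, at 5.06 and 4.45 on the log2 scale, and passed the filter there only through 6 h. Among the deletion's largest falls, MNC1 changed by -2.59 (limma adjusted p = 8.05e-05) and YHR073W-A, which passed there only through 3 h, by -3.05. That of YMR013W-A rested on 0 and 0 footprint reads at 6 h and 2 and 2 at 3 h, and its call was lost when either deletion replicate was left out.

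In mRNA the leading rises were YOR011W-A, DGR1, YIL105W-A, YGR161W-C, YLL066W-A and YEL008C-A. All but YGR161W-C were under 10 RPKM of mRNA in WT at 3 h and entered through 6 h. YGR161W-C had 3266 and 2924 RPKM of mRNA in WT at 6 h and 179 and 133 RPKM at 3 h, a log2 change of 4.31 ± 0.18 (SE) (limma adjusted p = 4.55e-06). YOR011W-A had 129 and 147 RPKM of mRNA in WT at 6 h and 4.07 and 0 RPKM at 3 h. DGR1 had 289.8 and 266 RPKM at 6 h and 8.26 and 2.04 RPKM at 3 h. The DGR1 mRNA difference had no counterpart in footprints, of which there were 1 and 1 reads in WT at 6 h and 1 and 2 at 3 h. YLL066W-A, without a footprint read in any library, had mRNA at 41.4 and 30.5 RPKM in WT at 6 h and 1.42 and 0.419 RPKM at 3 h. YEL008C-A rested on 5 and 4 mRNA reads at 6 h and none at 3 h, at least 2.51-fold higher. The mRNA difference of YIL105W-A is likewise a description with no p, and it was no longer called with all libraries included. The leading mRNA falls were YLR146W-A, YOL038C-A, YPL152W-A, YMR013C-A, YHR073W-A and YBR196C-A, all under 10 RPKM in WT at 6 h and entered through 3 h, with log2 changes from -4.21 to -3.24. YLR146W-A had 1.95 and 0.884 RPKM of mRNA in WT at 6 h and 47.3 and 38.5 RPKM at 3 h. YBR196C-A had 5.6 and 1.27 RPKM at 6 h and 31.9 and 39.4 RPKM at 3 h.

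In the unnamed ORFs footprints and mRNA mostly changed together. The joint share over all genes is not given here, so this is not shown to be particular to them. Of the 119 unnamed ORFs tested in both, 44 were higher in both and 22 lower in both after rescaling, and 24 were called in neither. Another 11 were higher and 6 lower in mRNA with no footprint call, and 3 were higher and 7 lower in footprints with no mRNA call. In 2 ORFs, YCR087C-A and YFR009W-A, singled out after their values were seen, the rescaled calls had opposite signs. YFR009W-A changed by 0.49 in rescaled footprints and -0.43 in rescaled mRNA (limma adjusted p = 0.0491 and 0.0291), and without rescaling its footprint change was not called. Of the 50 ORFs under the footprint filter, 17 were higher and 10 lower in rescaled mRNA, where 38.1% and 35.5% of all genes were.

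**Figure D3:**
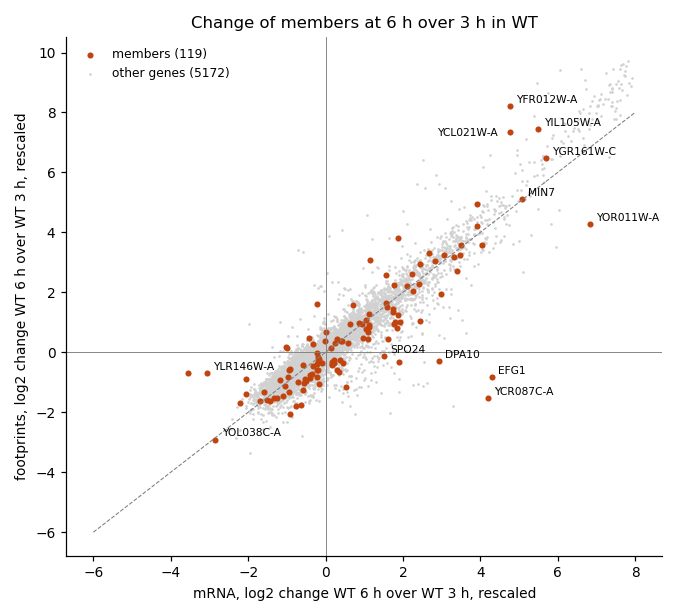
Log2 change of WT 6 h over WT 3 h in footprints (vertical) against mRNA (horizontal), with libraries rescaled by the median ratio; red points are the 119 unnamed ORFs tested in both, grey points the other genes, and the dashed line marks equal change. Most unnamed ORFs lie along the line, and EFG1, YCR087C-A and DPA10 lie to its lower right.

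By role, 29 unnamed ORFs with a known function were listed. Their counts after rescaling stand beside 38.1% of all genes higher and 35.5% lower in mRNA and 36% higher and 32.3% lower in footprints, and lists this small say nothing of a difference from those shares. Of 9 of the respiratory chain, 5 were higher in WT mRNA at 6 h after rescaling, none was lower and 4 were not called, with a median rescaled log2 change of 1.05. In rescaled footprints 5 were higher, 1 lower and 3 not called. SDH6, an assembly factor of succinate dehydrogenase, had 599 and 516 RPKM of footprints in WT at 6 h and 171 and 194 RPKM at 3 h (log2 change 1.60, limma adjusted p = 0.000215). RCF3, associated with cytochrome c oxidase, changed by 1.94 in rescaled footprints (limma adjusted p = 7.89e-05). The cytochrome c oxidase assembly factors COA2 and COA3 changed by 1.33 and 1.51 there (limma adjusted p = 0.000855 and 0.000723). Without rescaling, 3 of the 9 were higher and 4 lower in footprints, and 1 was higher and 4 lower in mRNA.

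Of 6 other mitochondrial ORFs, 4 were higher and 1 lower in rescaled mRNA, and 3 were higher and 1 lower in rescaled footprints. MIC10, which shapes the inner membrane's cristae, was the lower one, with 220.3 and 193 RPKM of footprints in WT at 6 h and 1226 and 1128 RPKM at 3 h (rescaled log2 change -1.53, limma adjusted p = 2.23e-05). MIM2, of the outer membrane import machinery, changed by 1.02 and RTC6, of the mitochondrial ribosome, by 0.92 in rescaled footprints (limma adjusted p = 0.00771 and 0.00196). Without rescaling none of the 6 was higher in footprints and 3 were lower, and in mRNA 1 was higher and 4 lower.

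The 6 ORFs of meiosis and chromosomes had 2 higher and 2 lower in rescaled footprints and 2 not called. HED1, a meiosis-specific gene, had 464 and 462 RPKM of footprints in WT at 6 h and 1401 and 1291 RPKM at 3 h (rescaled log2 change -0.56, limma adjusted p = 0.0107). NBL1, a subunit of the chromosomal passenger complex, also fell, by 0.81 on the rescaled log2 scale (limma adjusted p = 0.00107). WIP1, a kinetochore protein, had 539.6 and 510.3 RPKM at 6 h and 375 and 379 RPKM at 3 h, and MHF2, a histone-fold protein, had 37.2 and 39 RPKM at 6 h and 28.6 and 42.5 RPKM at 3 h. Both rose after rescaling, by 1.45 and 1.07 (limma adjusted p = 7.49e-05 and 0.00289). Without rescaling, 1 of the 6 was higher and 4 lower. Of 3 ribosome-related ORFs, LSO2, which binds ribosomes, had 231 and 192 RPKM of footprints at 6 h and 101 and 78.4 RPKM at 3 h in WT (rescaled log2 change 2.20, limma adjusted p = 2.15e-05). Of 5 ORFs of membranes, wall and actin, 1 was higher and 3 lower in rescaled footprints, and without rescaling none was higher and 4 were lower. The higher one was KSH1, of the early secretory pathway, at 0.84 (limma adjusted p = 0.00542), and EGO2, of the EGO complex on the vacuole, was among the lower at -0.58 (limma adjusted p = 0.0104).

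Translation efficiency, here the footprint change minus the mRNA change, moved furthest in a few unnamed ORFs whose mRNA went up while their footprints did not. Of 119 tested, 17 were higher and 7 lower at 6 h in WT, where 30.2% of all 5291 genes were higher and 2.48% lower. After rescaling, 4 were higher and 9 lower, against 2.14% and 3.25%. Included are ORFs, named below, that passed the footprint filter in WT through 1 time only, or only through the deletion. No recount without them was made. The median log2 change was 0.25 for the unnamed ORFs and 0.50 for all genes. These counts depended on single libraries. They dropped to 2 called without WT replicate 3 and to 3 without WT replicate 4, stood at 40 when either deletion replicate was left out, and at 3 with the mRNA library labelled deletion 3 h replicate 2 included.

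EFG1, required for maturation of the small subunit's ribosomal RNA, showed this most plainly. Its mRNA level was 266 and 261 RPKM in WT at 6 h and 33.6 and 33.6 RPKM in WT at 3 h, while its footprint level was 5.72 and 6.56 RPKM at 6 h and 29.8 and 17.2 RPKM at 3 h. The ratio of the 2 levels was 0.0215 and 0.0252 at 6 h and 0.887 and 0.512 at 3 h in the WT samples, with no overlap, a log2 change of -4.67 ± 0.45 (SE) (limma adjusted p = 9.34e-05). The deletion had ratios of 0.027 and 0.0102 at 6 h and 0.164 in its replicate 4 at 3 h. The call was lost without WT replicate 3 (limma adjusted p = 0.0776). The 132 bases counted under this name do not match the RefSeq length of EFG1, so the row may cover only some of the gene. Its same-strand RefSeq neighbour YGR273C had mRNA levels of 2041 and 2097 RPKM in WT at 6 h and 40.7 and 15.6 RPKM at 3 h, and the part of reads from neighbouring transcripts in this result was not tested.

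YCR087C-A had the largest fall in efficiency of the unnamed ORFs tested. Its mRNA level was 135 and 152 RPKM in WT at 6 h and 15.8 and 22.5 RPKM at 3 h, and its footprint level 0.94 and 1.62 RPKM at 6 h and 10.9 and 8.46 RPKM at 3 h. The ratio was 0.00698 and 0.0106 at 6 h and 0.688 and 0.376 at 3 h, a log2 change of -5.09 ± 0.42 (SE). It passed the footprint filter in WT only through 3 h, so this is a description with no p. In the deletion the ratio was 0.0334 and 0.0103 at 6 h and 0.377 in replicate 4 at 3 h. Without WT replicate 3 the efficiency of YCR087C-A missed the threshold.

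DPA10 was abundant at both times. It had 6396 and 6182 RPKM of mRNA in WT at 6 h and 2477 and 1875 RPKM at 3 h, with 1612 and 1986 RPKM of footprints at 6 h and 3749 and 4868 RPKM at 3 h. Its ratio was 0.252 and 0.321 at 6 h and 1.51 and 2.6 at 3 h, a log2 change of -2.80 ± 0.56 (SE) (limma adjusted p = 0.00577). DPA10 lies between CDA1 and CDA2, chitin deacetylase genes of the spore wall on the opposite strand, whose mRNA levels in WT were 4990.2 and 4526 RPKM and 9259 and 8413 RPKM at 6 h, against 135 and 69.1 RPKM and 252 and 92.7 RPKM at 3 h. Their part in the DPA10 values was not tested. SPO24 had ratios of 0.931 and 0.752 at 6 h and 2.07 and 1.77 at 3 h in WT, a log2 change of -1.19 ± 0.21 (SE) (limma adjusted p = 0.00363). YML116W-A changed by -0.96 (limma adjusted p = 0.00599). YPR108W-A, which passed the footprint filter in WT only through 3 h, changed by -1.69. The calls of DPA10, SPO24, YPR108W-A and YML116W-A were each lost without WT replicate 3, without WT replicate 4 and with all libraries included.

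In 4 unnamed ORFs efficiency rose on both scalings. YCL021W-A had ratios of 0.785 and 1.02 in WT at 6 h and 0.135 and 0.0662 at 3 h, a log2 change of 3.07 ± 0.44 (SE) (limma adjusted p = 0.00147). It had mRNA levels of 948 and 827 RPKM at 6 h and 91.9 and 76.9 RPKM at 3 h, and footprints of 745 and 839 RPKM and 12.4 and 5.09 RPKM at those times, so both measures went up and footprints more. In YPL038W-A and YHR214W-A footprints differed between the times more than mRNA did. The mRNA of YPL038W-A was 23.9 and 28.5 RPKM at 6 h and 20.9 and 14.8 RPKM at 3 h in WT, and its footprint level was 31.5 and 27.9 RPKM at 6 h and 3.31 and 2.45 RPKM at 3 h. The efficiency of YPL038W-A changed by 2.44. YHR214W-A had footprint levels of 16.4 and 24.9 RPKM at 6 h and 5.64 and 1.9 RPKM at 3 h. Its mRNA levels were 15.7 and 17.9 RPKM and 20 and 17.9 RPKM at those times. Its efficiency changed by 2.44. The fourth, YPL119C-A, is described below. Leaving out WT replicate 4 took all 4 calls away, and leaving out WT replicate 3 took away all but that of YCL021W-A. With all libraries included, those of YCL021W-A (limma adjusted p = 0.222), YPL038W-A and YHR214W-A were lost as well. The mean footprint level was under the 5 RPKM filter in WT at 3 h in YPL038W-A and YHR214W-A. Within WT these passed it only through 6 h. In YCR087C-A and YPR108W-A it was under the filter in WT at 6 h, and they passed in WT only through 3 h. YPL119C-A was under the filter in WT at both times and passed through the deletion. The efficiency changes of these ORFs within WT are therefore a description with no p.

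**Figure D4:**
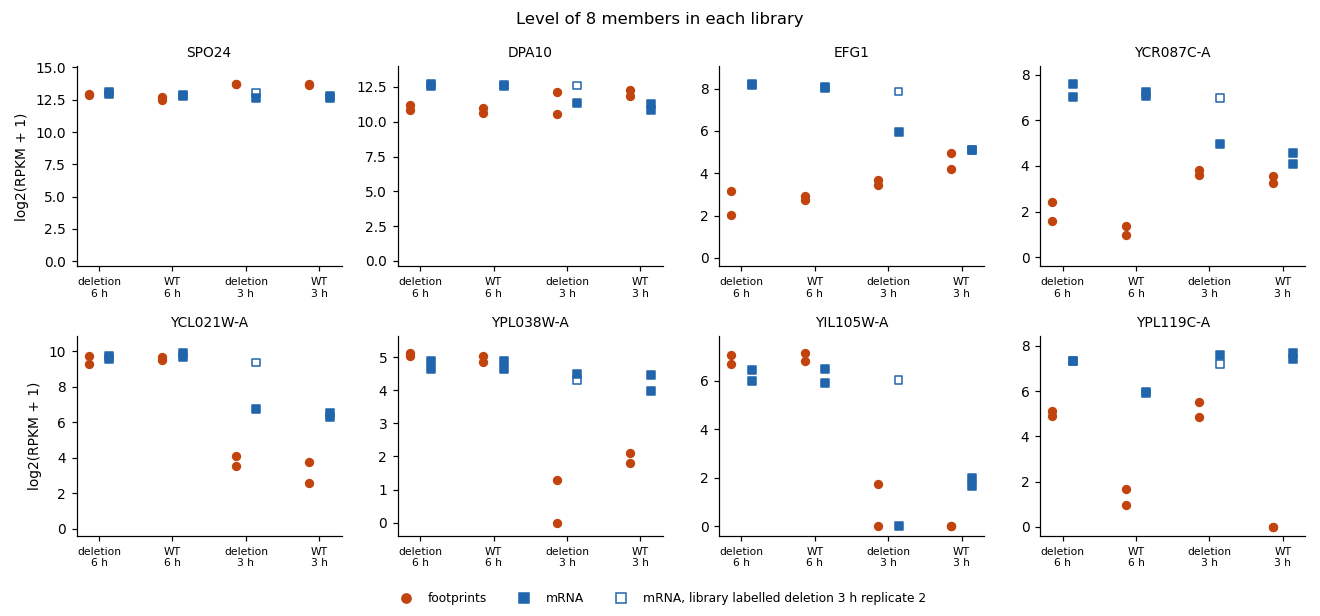
Level of 8 unnamed ORFs in each library as log2(RPKM + 1), footprints as circles and mRNA as squares, with the 2 libraries of each group as separate points; the open square is the mRNA library labelled deletion 3 h replicate 2. In EFG1 and YCR087C-A the mRNA squares stand higher and the footprint circles lower at 6 h than at 3 h, and in YPL119C-A the deletion's footprints stand above those of WT at both times.

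Between the deletion and WT, YPL119C-A was the only unnamed ORF called, and it is the RefSeq neighbour of DBP1 on the same strand, beside the deleted sequence. Its footprint level was 45 and 28.3 RPKM in the deletion at 3 h, from 63 and 30 reads, and 0 in both WT libraries. That is at least 27.2-fold higher against a floor of 3 reads over the group. At 6 h it was 33.5 and 29 RPKM in the deletion and 0.94 and 2.15 RPKM in WT, from 39 and 29 reads against 1 and 2 reads. The ratio of those read totals was 20.9 (95% interval 6.85 to 104, exact, counting error only). In WT its footprints were under the filter, which it passed only through the deletion. For that reason p is given from the fit with no filter alone. There the limma adjusted p was 0.000807 at 3 h and 0.00959 at 6 h. The 6 h call was lost by limma-voom on recovered reads (adjusted p = 0.214), without WT replicate 3 and without deletion replicate 2.

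YPL119C-A carried more footprints for its mRNA in the deletion. The ratio was 0.209 and 0.182 in the deletion at 6 h and 0.0158 and 0.0355 in WT at 6 h. At 3 h it was 0.148 in deletion replicate 4 and 0 in both WT samples, where a floor of 3 reads allows at most 0.00747. Its mRNA level was 160.5 and 159 RPKM in the deletion at 6 h and 59.6 and 60.7 RPKM in WT at 6 h, a log2 change of 1.40 ± 0.12 (SE) (limma adjusted p = 0.0288). At 3 h the mRNA was 191 RPKM in deletion replicate 4, 144 RPKM in the library labelled deletion 3 h replicate 2 and 203 and 169 RPKM in WT, without a call. The fitted efficiency was higher in the deletion at 3 h, by 5.15 on the log2 scale, with 1 deletion mRNA library at that time. At 6 h the log2 change was 2.31. YPL119C-A passed the footprint filter only through the deletion, so both changes are a description with no p. The 3 h call counted below was lost with the replicate block, and at 6 h efficiency was not called. The 6 h mRNA call was lost without WT replicate 3, without WT replicate 4, without deletion replicate 2 and with all libraries included, where the limma adjusted p was 0.0608 to 1. Within WT the footprint ratio of this ORF was also called higher at 6 h than at 3 h, on 1 and 2 footprint reads against none.

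No other unnamed ORF was called in the deletion. In footprints 1 of 119 was called at 3 h, where 0.0377% of all 5312 genes were called, and 1 of 119 at 6 h, where 0.0565% were. In mRNA none of 169 was called at 3 h, where 0.0175% of 5720 genes were, and 1 at 6 h, where 0.035% were. In efficiency 1 of 119 was called at 3 h and none at 6 h, where 0.0189% of 5291 genes were called at each time. The ORF called was YPL119C-A each time, and it passed the footprint filter only through the deletion. At an unadjusted p under 0.05 there were 10 and 14 in footprints, 15 and 15 in mRNA and 11 and 9 in efficiency, at 3 h and 6 h. By limma-voom on recovered reads the counts were 1 and 0 in footprints, 0 and 0 in mRNA and 1 and 0 in efficiency. The 95% interval of the log2 change lay within 1 of 0 for 80 of the 119 ORFs in footprints at 3 h and for 75 at 6 h, and for 111 of the 169 in mRNA at 3 h and 127 at 6 h. For the other ORFs the interval reached past that size. Shares of all genes are not given here for the unadjusted p, limma-voom or the intervals. Those counts therefore do not show whether the unnamed ORFs differ from other genes.

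Some of these counts moved with 1 library, and the matching shares of all genes are not given here. Footprints at 3 h gave 9 called without deletion replicate 4, and at 6 h gave 0 without WT replicate 3 or without deletion replicate 2. In mRNA, 2 were called at 3 h without WT replicate 3, and at 6 h there were 0 without WT replicate 3 or deletion replicate 2 and 2 without deletion replicate 4, while the 1 called without WT replicate 4 was another ORF than YPL119C-A. In efficiency, 2 were called at 3 h without WT replicate 3 or without deletion replicate 2. The smallest p in mRNA at 3 h belonged to EFG1, with 61.3 RPKM in deletion replicate 4 and 33.6 and 33.6 RPKM in WT (log2 change 0.85, limma adjusted p = 0.54), followed by YIL105W-A at -1.83 (limma adjusted p = 0.592), which turned to 1.20 with all libraries included. In efficiency at 6 h YLR146W-A followed YPL119C-A, at -2.30 (limma adjusted p = 1), and rested on 8 and 11 mRNA reads in the deletion and 2 and 1 in WT.

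The change from 3 h to 6 h in footprints did not differ detectably between the strains for any unnamed ORF. With limma, none of 119 was called for the change in the deletion minus the change in WT, where 0% of all genes were. Limma-voom also called 0, leaving out WT replicate 3 gave 1, and 7 had a p under 0.05 before adjustment. The smallest p belonged to YPL119C-A at -1.50 and YIL102C-A at -0.74 on the log2 scale (limma adjusted p = 1 for both). The 95% interval lay within 1 of 0 for 55 of the 119. The shares of all genes for the interval and the unadjusted p are not given here.

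**Figure D5:**
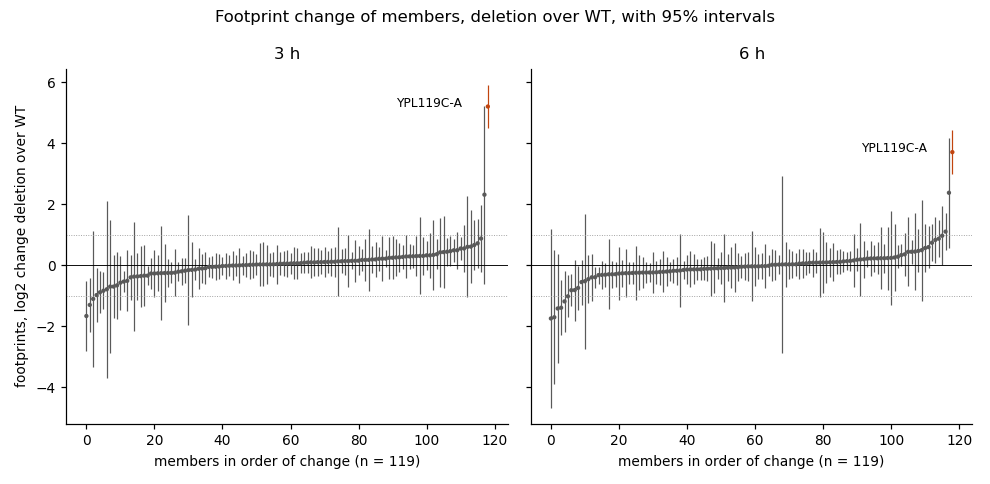
Log2 change in footprints of the deletion over WT at 3 h (left) and 6 h (right) for the 119 unnamed ORFs tested, in order of change, with 95% intervals as vertical lines and dotted lines at -1 and 1. YPL119C-A stands at the far right of both panels, at 5.20 and 3.70, and the intervals of most other ORFs cross 0.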

How the data were processed

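The members and the gene lists were chosen with earlier results of these data known. The authors deposited 1 table of RPKM values per gene for all 16 libraries; per the submitters' processing notes, the tools included Bowtie2, bcl2fastq and CASAVA. How reads were counted, on which strand and against which build or gene set is not given in the sources used here. Footprints of 28 to 31 bases and mRNA reads of 50 bases were sequenced, per the labels' protocols. The RPKM values came out as whole reads, within 0.02 of a read, in 6360 genes, and the other 319 were at 0 in every library. From these reads came depths, counted lengths and counting intervals; intervals and floors of 3 reads cover counting error only.

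Differences were tested with limma 3.58.1 in R 4.3.3 on log2(RPKM + 1), which understates the change of low genes. The fit took genes that averaged 5 RPKM or more in that kind of library, groups shared 1 spread per gene with a mean-variance trend, and p-values were adjusted by Benjamini-Hochberg over all genes fitted, with a threshold of 0.05. The mRNA fit used 7 libraries and the efficiency fit, an interaction of library kind and group, used 15. The fits were tested on simulated data. Named in the text are, per comparison, up to 6 rises and 6 falls of largest size that were called on both scalings without overlap, the 2 smallest p where none was called, the extremes of level and ratio, YPL119C-A and the rows around the floor; others follow the role list or are said to be chosen after their values were seen. Alternatives were limma-voom on recovered reads, no filter, a pseudocount of 5 RPKM, rescaled libraries, a replicate block, all libraries, and each replicate left out. RefSeq supplied names and neighbours by locus tag for 5994 rows. Promoter motifs and groups by row wording were planned and not used here. Replicate pairs differed by more than sampling noise, with mean chi-square values of 3.85 or more.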

Additional observations from a re-analysis of the deposited data

How the results depend on the processing

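Counts of called unnamed ORFs stayed within 1.5 times of those in the report under limma-voom on recovered reads, no filter, a pseudocount of 5 RPKM, rescaling and the replicate block, with the exceptions that follow. Limma-voom called 0 at 6 h between deletion and WT in footprints and 0 in mRNA, where 1 each was reported, and no filter also called 0 in that mRNA comparison. For efficiency at 6 h against 3 h in WT, 24 were called, against 38 with no filter, 13 with rescaling and 3 with all libraries. With all libraries, mRNA at 6 h against 3 h in WT gave 86 in place of 134, mRNA between deletion and WT at 6 h gave 0, and the change of YIL105W-A between deletion and WT at 3 h reversed to 1.20. With 1 replicate left out, calls at 6 h against 3 h ranged from 73 to 97 in WT footprints, 91 to 93 in deletion footprints, 119 to 146 in WT mRNA and 2 to 40 in WT efficiency. Between deletion and WT they ranged from 1 to 9 (3 h) and 0 to 1 (6 h) in footprints, 0 to 2 at both times in mRNA, 1 to 2 (3 h) and 0 to 0 (6 h) in efficiency, and 0 to 1 for the strain difference in the time change. A lone sample was then assumed to vary like the other groups. The cause of these changes was not tested. Among ORFs with at least 20 reads in each WT mRNA library, the median footprint over mRNA ratio in WT was 0.848 at 6 h and 0.673 at 3 h. Other genes so covered had 0.987 and 0.719. For the unnamed ORFs the 3 h median was 0.545 with 1 RPKM added to both levels. With 1 WT replicate left out, their median ranged from 0.569 to 0.629 at 6 h and 0.502 to 0.512 at 3 h. A floor taken over 7 mRNA libraries would keep 167 ORFs. For the single named ORFs that were called, leaving out a replicate kept the call in 175 cases and lost it in 24. At this depth 51 ORFs had under 20 reads in a WT mRNA library at 6 h and 39 at 3 h.

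Whether the replicate numbers pair the samples cannot be decided with 2 libraries a group, whose deviations from the group mean mirror each other. Deviations of same-numbered 6 h and 3 h libraries correlated at 0.238 in deletion footprints, -0.04 in WT footprints and 0.0342 in WT mRNA. Those of footprints with mRNA of the same sample number correlated at 0.672 in the deletion at 6 h, -0.166 in WT at 6 h and -0.339 in WT at 3 h. With the replicate block, efficiency at 6 h against 3 h in WT gave 35 calls. Between deletion and WT at 3 h it gave 0, with YPL119C-A no longer called. No paired analysis was possible for deletion against WT in footprints or in mRNA alone because the strains share only replicate number 4.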
